A study of Arabidopsis thaliana with 12 samples.

Results

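The 24-nt siRNAs that remain in nrpe1-11, a mutant of the largest subunit of RNA polymerase V (Pol V), were compared with those that remain in nrpd1-3, a mutant of the largest subunit of RNA polymerase IV (Pol IV). Both genotypes were Arabidopsis thaliana seedlings, 2 weeks old, grown at 22 °C on MS plates and untreated. Each genotype had 3 libraries, which the submitters call biological replicates, and each mutant is represented by a single allele. The other libraries of the study, 3 of pkl-1 and 3 of the wild type (WT), were left out of the main test. They are given beside the results as a scale, and the WT mean chose the bins of a further set described below. The genome was divided into 100-bp bins, and the value of a bin is its number of 24-nt reads per 10000000 mapped small RNA reads of all lengths (RPTM). By its methods the study kept only bins above 5 RPTM in any plant, pkl-1 and WT included, so the values do not cover the whole genome. Of 57094 bins with values, 55757 lay on the 5 nuclear chromosomes outside the rDNA repeats of chromosomes 2 and 3. The 31371 of these with more than 5 RPTM in any of the 6 libraries were the members tested.

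In plants, Pol IV transcribes transposons and other repeats, and the RNA-dependent RNA polymerase RDR2 and the Dicer protein DCL3 turn its transcripts into 24-nt siRNAs. Pol V acts downstream in RNA-directed DNA methylation (RdDM). It makes the scaffold transcripts to which siRNAs bound by AGO4 pair, and the methyltransferase DRM2 then methylates cytosines there, CHH sites included (H is A, C or T). siRNAs that persist without Pol V but are lost without Pol IV are the ones this comparison brings out.

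The sequences printed here, all from TAIR10, are bins of large increase in nrpe1-11 over nrpd1-3 or bins of the largest regions. The bins of the first group are from 4 chromosomes and hold a common repeat, and capitals mark bases that lie in a run of 12 shared with at least 2 of the others. The bin at Chr5:11702301-11702400 is given on the minus strand and the others on the plus strand.
Chr5:11727701-11727800: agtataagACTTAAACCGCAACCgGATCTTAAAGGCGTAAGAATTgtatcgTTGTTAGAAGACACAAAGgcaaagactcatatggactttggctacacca
Chr3:13589201-13589300: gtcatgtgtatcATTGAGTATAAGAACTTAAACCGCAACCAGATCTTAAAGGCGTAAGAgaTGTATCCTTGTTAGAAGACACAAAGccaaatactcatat
Chr5:11702301-11702400: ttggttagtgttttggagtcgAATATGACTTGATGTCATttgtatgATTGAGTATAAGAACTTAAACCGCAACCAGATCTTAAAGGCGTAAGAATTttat
Chr2:3621501-3621600: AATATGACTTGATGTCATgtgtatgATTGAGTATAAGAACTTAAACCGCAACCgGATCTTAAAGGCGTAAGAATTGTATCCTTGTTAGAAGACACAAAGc
Chr1:15082901-15083000: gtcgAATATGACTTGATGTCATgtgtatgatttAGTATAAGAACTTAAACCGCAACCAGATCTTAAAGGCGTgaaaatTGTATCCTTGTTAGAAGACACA

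The bins of the second group lay outside genes and did not share the repeat. They are shown because they led the list of increases or the largest regions, and capitals mark the cytosines of CHH sites on the printed strand.
Chr4:3768201-3768300: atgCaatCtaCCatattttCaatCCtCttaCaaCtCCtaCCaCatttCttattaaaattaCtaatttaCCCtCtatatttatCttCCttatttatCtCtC
Chr4:2809801-2809900: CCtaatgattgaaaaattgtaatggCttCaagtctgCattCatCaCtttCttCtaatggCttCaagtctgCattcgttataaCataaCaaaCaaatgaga
Chr2:4997001-4997100: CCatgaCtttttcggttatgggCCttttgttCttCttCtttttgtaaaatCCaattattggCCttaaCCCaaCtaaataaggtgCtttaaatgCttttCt
Chr3:15269601-15269700: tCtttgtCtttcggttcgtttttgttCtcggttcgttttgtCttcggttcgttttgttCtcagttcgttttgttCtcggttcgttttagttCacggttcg
Chr2:2606501-2606600: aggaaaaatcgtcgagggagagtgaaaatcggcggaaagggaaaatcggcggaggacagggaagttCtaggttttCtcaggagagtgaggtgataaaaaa

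Outside the rDNA, the nuclear 24-nt siRNA pool was several times larger in nrpe1-11 than in nrpd1-3. Over all 55757 nuclear bins the sum was 398513, 498209 and 491238 RPTM in the nrpe1-11 libraries, against 86264, 116800 and 92613 RPTM in the nrpd1-3 libraries. Every nrpe1-11 library was above every nrpd1-3 library, with means of 462653 ± 55657 and 98559 ± 16113 RPTM (SD, n = 3 each) and a ratio of 4.69. The exact two-sided permutation test gave p = 0.1, the smallest that 3 libraries against 3 allow. nrpe1-11 held 39.7% and nrpd1-3 held 8.46% of the WT sum. The ratio was 4.51 over the tested bins, 2.99 over the 5807 bins above 20 RPTM in some library, and 1.57 over the tested bins with the rDNA bins included. RPTM divides by mapped reads of all lengths, so a library that loses 24-nt siRNAs shows the other sequences at a higher RPTM. When libraries were instead scaled to the 24-nt reads of annotated miRNA genes, the ratio over the tested bins was 7.01. In whole seedlings, fewer cells that make an siRNA and less siRNA per cell cannot be told apart.

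Most bins had no read in nrpd1-3. Of all 55757 nuclear bins, 28.9%, 20.4% and 23.3% had no 24-nt read in the nrpe1-11 libraries, against 92.5%, 80.6% and 92.5% in the nrpd1-3 libraries. The groups were far apart, and nrpd1-3 replicate 2 stood apart from the other nrpd1-3 libraries with fewer empty bins. In WT the mean share of empty bins was 3.30%. The study had kept bins for their level in any plant, WT included, so these shares depend on that choice. Mapped reads per library were 6208260, 6116124 and 6648631 for nrpe1-11 and 8955989, 6725963 and 5598380 for nrpd1-3, so that the nrpd1-3 libraries were not consistently shallower.

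**Figure D1:**
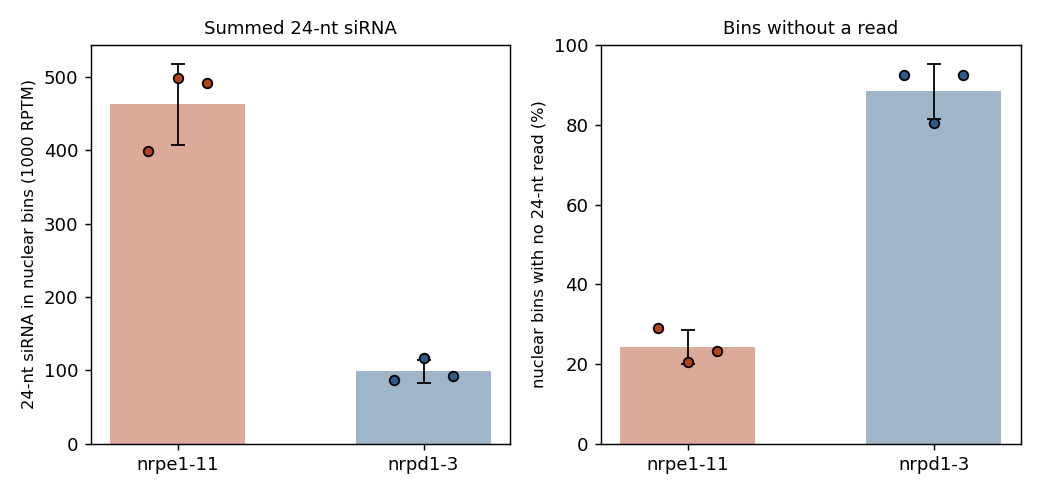
Left, summed 24-nt siRNA over the 55757 nuclear bins outside the rDNA, in units of 1000 RPTM. Right, the percentage of these bins with no 24-nt read. Points are libraries, bars are means and error bars are SD (n = 3). The nrpe1-11 sums lie between 398513 and 498209 RPTM, all above the nrpd1-3 sums, and at most 28.9% of bins are empty in a nrpe1-11 library against at least 80.6% in a nrpd1-3 library.

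Which bins passed the filter depended mostly on nrpe1-11. Above 5 RPTM were 29094 bins (92.7%) in nrpe1-11 libraries only, 404 in nrpd1-3 libraries only and 1873 in both genotypes. A bin that passed through nrpe1-11 alone had its highest library there, and a bin that passed through nrpd1-3 alone had it in nrpd1-3. The counts of bins called higher or lower therefore describe the filter as well as the genotypes. The lowest maximum among tested bins was 5.36 RPTM and the highest among bins not tested was 4.91 RPTM. The 24386 nuclear bins that were not tested included 17866 with a WT mean above 5 RPTM, where both mutants were at or under the filter.

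By limma on log2(RPTM + 1), with an adjusted p under 0.01, 24284 of the 31371 bins (77.4%) were called higher in nrpe1-11 and 65 (0.207%) lower, 24349 (77.6%) in all. With no filter beyond that of the study on the 55757 nuclear bins, 24256 (43.5%) were higher and 24 (0.0430%) lower. Later mentions of no filter mean this setting. All 3 nrpe1-11 libraries lay above all 3 nrpd1-3 libraries in 25681 bins (81.9%) and below them in 203 (0.647%). The higher bins had log2 fold changes of 0.66 to 8.37 with a median of 3.00, and the lower bins of -5.11 to -0.82. Among the higher bins, 19236 (79.2%) had no read in any nrpd1-3 library, and 24132 (99.4%) had at most 3 reads in each. For these the fold is a lower bound, taken against the mean value of 3 reads in the nrpd1-3 libraries, 4.39 RPTM. The nrpe1-11 mean exceeded that floor in 22129 bins, with a median bound of 1.93-fold, and the bound reached 4-fold or more in 3802 bins. The other 152 higher bins had more than 3 reads in some nrpd1-3 library. The sum over the higher bins was 285110, 356490 and 361511 RPTM in nrpe1-11 libraries, against 2142, 8989 and 3555 RPTM in nrpd1-3 libraries. Here too nrpd1-3 replicate 2 was the highest of its group, and without it 23239 bins were called higher and 41 lower.

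**Figure D2:**
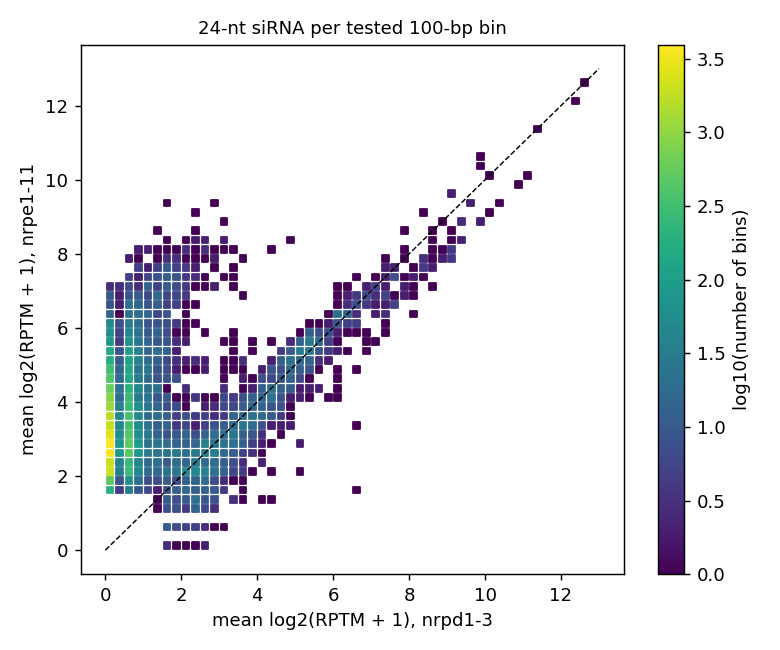
Mean log2(RPTM + 1) of the 31371 tested bins in nrpe1-11 (y axis) and nrpd1-3 (x axis). Each square is a group of bins of like level, its colour gives the log10 number of bins, and the dashed line marks equal levels. Most bins form a column near 0 in nrpd1-3 that spans the range of nrpe1-11, and a smaller set runs along the line.

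To describe the loci by a level that neither mutant set, the 39308 nuclear bins whose WT mean exceeded 5 RPTM were taken, a selection added after the data had been seen and one that slightly favours high WT values. In these bins nrpe1-11 kept a median of 30.9% of the WT mean, with quartiles of 5.41% and 89.4%, whereas nrpd1-3 had a median of 0. In nrpe1-11, 33.6% of the bins were under 10% of WT and 21.0% were at or above WT. In nrpd1-3, 95.7% were under 10% of WT. In limma fitted to this set, 16974 bins (43.2%) were higher in nrpe1-11 than in nrpd1-3 and 14 (0.0356%) were lower. The bins most abundant in WT kept less in nrpe1-11, with medians of 7.77% of WT in the 12085 bins above 20 RPTM and 3.72% in the 1907 bins above 100 RPTM. In nrpd1-3 those medians were 0 and 0.484%.

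The share of siRNA kept without Pol V was highest near the centromeres. Among the WT-selected bins, the nrpe1-11 median was 79.5% of WT within 1 Mb of the centromere, where nrpd1-3 was at 0. It was 64.1% at 1 to 2 Mb, 21.6% at 2 to 4 Mb, 9.43% at 4 to 8 Mb and 8.40% beyond 8 Mb, and the nrpd1-3 median was 0 in each. The share of bins called higher over nrpd1-3 was 58.7%, 59.7%, 40.3%, 29.9% and 24.9% along the same steps, beside 43.2% of all WT-selected bins. These are descriptions over bins that share libraries, with no test. WT medians along the steps were 9.17, 10.3, 12.5, 13.9 and 14.8 RPTM, so the bins near the centromere were also those of lower WT level, and its part in the trend was not tested.

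**Figure D3:**
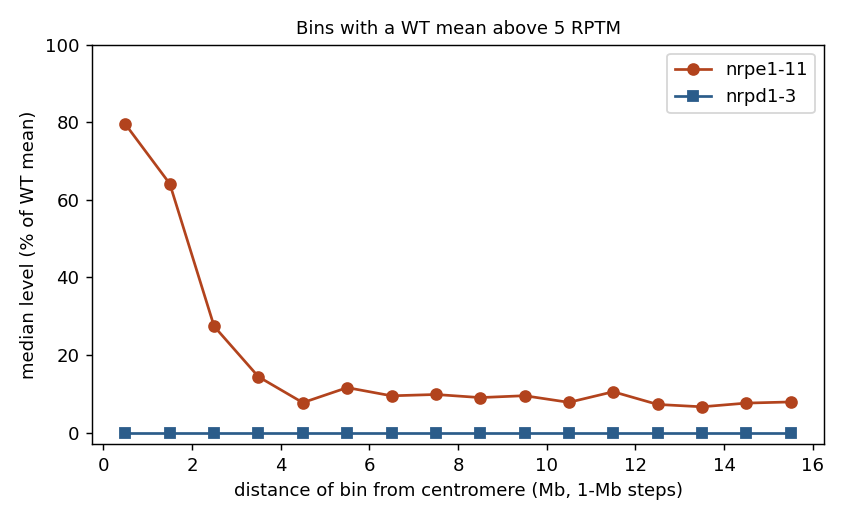
Median level in % of the WT mean of 24-nt siRNA in bins with a WT mean above 5 RPTM, in 1-Mb steps of distance from the centromere, for nrpe1-11 (circles) and nrpd1-3 (squares). nrpe1-11 is at 79.5% of WT in the innermost step and near 8% beyond 8 Mb, and nrpd1-3 is at 0 throughout.

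By annotation, pseudogenes, a class in which the reference places many transposon genes, kept the most. Their 6805 WT-selected bins had a nrpe1-11 median of 94.0% of WT, and 72.2% were higher than in nrpd1-3. The 27334 intergenic bins kept 18.01% of WT and 37.0% were higher. The 4066 bins in protein-coding genes kept 36.5% and 38.7% were higher. In the 157 bins of miRNA genes the median was 25.9% in nrpe1-11 and 2.28% in nrpd1-3, and 15.3% were higher. WT medians were 8.20 RPTM in pseudogene, 13.2 in intergenic, 12.1 in protein-coding and 19.7 in miRNA gene bins. The part of the WT level in this order was not tested. By the length of the unbroken stretch of bins with values, the longest stretches kept the most, but the order was not one of length throughout. The nrpe1-11 median was 38.7% of WT for single bins, 16.1% in runs of 2, 21.7% in runs of 3 to 5, 64.1% in runs of 6 to 10 and 94.3% in runs of more than 10 adjoining bins. The shares called higher along the same steps were 43.2%, 34.9%, 40.3%, 58.9% and 78.7%. Sequence uniqueness, the share of a bin's 24-mers that occur once in the genome, gave no steady order either. The nrpe1-11 median was 61.9% of WT in bins with no unique 24-mer, 28.5% in those with up to 50%, 20.1% in those over 50% and under 100%, and 45.2% in bins of unique 24-mers only. The shares called higher were 50.5%, 43.1%, 38.2% and 48.8%.

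The higher bins joined into 11893 regions when gaps of up to 200 bp were bridged. A single bin made up 7474 of them, 347 exceeded 1 kb and the longest was 10300 bp. The 65 lower bins formed 45 regions, of which 36 were single bins and the longest was 1100 bp. Since regions join bins already called, the called counts and ratios given below for named regions are descriptions with no test. The genes with the most called bins and the bins of largest change were likewise chosen by these values.

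The 180-bp satellite, the tandem repeat that builds Arabidopsis centromeres, kept its siRNA without Pol V and lost it without Pol IV. The 5 sequences of the first group carry its repeat unit, and primers for the satellite, allowed 2 mismatches, matched 372 of the nuclear bins. The summed 24-nt siRNA of these bins was 7833, 9096 and 9754 RPTM in nrpe1-11, against 40.2, 189 and 73.2 RPTM in nrpd1-3. The groups were far apart, with means of 8894 ± 976 and 101 ± 78.0 RPTM (SD, n = 3 each), and a ratio of 88.3. WT held 7844 ± 366 RPTM, so that nrpe1-11 was at 113% and nrpd1-3 at 1.28% of WT, and the pkl-1 mean was 5182 RPTM. Of the 350 satellite bins tested, 329 were called higher by limma (94.0%, beside 77.4% of all tested bins). All 350 had a positive log2 fold change with RPTM, miRNA scaling, edgeR and DESeq2, and 215 had with quantile normalization. Of the 24-mers in the printed satellite bins, 3.25% to 39.0% occur once in the genome. Reads were present at 3435 tested bins without any unique 24-mer, although only uniquely mapped reads were to be kept, so the copy from which a satellite read came cannot be told.

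The longest region, Chr5:11701601-11711900, lay in satellite sequence and had the largest summed difference as well. It held 35 primer matches and the pseudogene AT5G31770. Its bins summed to 3737, 4802 and 5018 RPTM in nrpe1-11, against 12.3, 84.7 and 53.6 RPTM in nrpd1-3, a ratio of 90.0. Of its 68 tested bins, 67 were called higher. Its best bin, Chr5:11702301-11702400, had 320.5, 338 and 469 RPTM in nrpe1-11 and a single read in each nrpd1-3 library (1.12, 1.49 and 1.79 RPTM), and was at least 85.7-fold higher.

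A second satellite region, Chr2:3614901-3623900, covered most of AT2G08986, a gene model annotated as protein-coding. Its sums were 2593, 3087 and 3262 RPTM in nrpe1-11, against 10.05, 58.0 and 26.8 RPTM in nrpd1-3, a ratio of 94.3. It held 46 primer matches, and 63 of its 64 tested bins had a 24-mer whose reverse complement lay within 10 kb. AT1G40104, also annotated as protein-coding, lay in the satellite region Chr1:15081901-15086100. There the sums were 2645, 2807 and 3137 RPTM in nrpe1-11, against 6.70, 47.6 and 21.4 RPTM in nrpd1-3, a ratio of 113.5, and all 38 tested bins were called higher. In each of these regions nrpd1-3 replicate 2 was the highest nrpd1-3 library and still lay far under every nrpe1-11 library.

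Large regions also lay outside satellite matches. At Chr2:2602301-2608300, with the pseudogene AT2G06550 and AT2G06555, nrpe1-11 had 3482, 4895 and 4729 RPTM, against 11.2, 114.5 and 55.4 RPTM in nrpd1-3, a ratio of 72.4 with 55 of 55 tested bins higher. WT held 4024 RPTM there. At Chr1:16349101-16357800, beside AT1G43320, nrpe1-11 had 2155, 2645 and 2519 RPTM, against 4.47, 61.0 and 7.14 RPTM in nrpd1-3, a ratio of 100.9 with 75 of 76 tested bins higher. Among annotated genes the pseudogene AT5G38383 held the most called bins, 59 of 61. It summed to 585, 786 and 751 RPTM in nrpe1-11, against 2.23, 13.4 and 3.57 RPTM in nrpd1-3, and to 447 RPTM in WT. AT2G08986 followed with 57 of 58, AT1G40104 with 36 of 36 and the pseudogene AT1G43150 with 35 of 37.

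Of single bins, the largest increase was at Chr4:3768201-3768300, 1530 bp from YY1, which encodes a zinc finger transcription factor. It had 466, 683 and 790 RPTM in nrpe1-11, against 0, 5.95 and 0 RPTM in nrpd1-3. The log2 fold change was 8.37 ± 0.76 (SE; limma, adjusted p = 4.6e-05), and WT had 468 RPTM. The nrpe1-11 mean was 147 times the nrpd1-3 floor of 4.39 RPTM, which nrpd1-3 replicate 2 exceeded. The next was Chr4:2809801-2809900, which lay 776 bp from AT4G05523. It had 295, 291 and 293 RPTM in nrpe1-11, against 0, 2.97 and 0 RPTM in nrpd1-3, and was at least 66.8-fold higher. The nrpe1-11 libraries were nearly equal there, and WT was at 223 RPTM.

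Chr2:4997001-4997100, 353 bp from the pseudogene AT2G12390, had 143, 288 and 272 RPTM in nrpe1-11, against 0, 1.49 and 0 RPTM in nrpd1-3, at least 53.4-fold higher. Here nrpe1-11 was also above WT (82.8 RPTM), while pkl-1 was at 1.42 RPTM. Chr3:15269601-15269700 is a short tandem repeat 1817 bp from the pseudogene AT3G43310. It had 377, 620 and 596 RPTM in nrpe1-11, against 0, 10.4 and 1.79 RPTM in nrpd1-3. The nrpe1-11 mean was 121 times the same floor, which nrpd1-3 replicate 2 exceeded. The remaining named increases, Chr5:11727701-11727800 and Chr3:13589201-13589300, were satellite bins of the first group, at least 62.2-fold and 64.6-fold higher. In all 6, nrpd1-3 replicate 2 was the highest nrpd1-3 library.

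**Figure D4:**
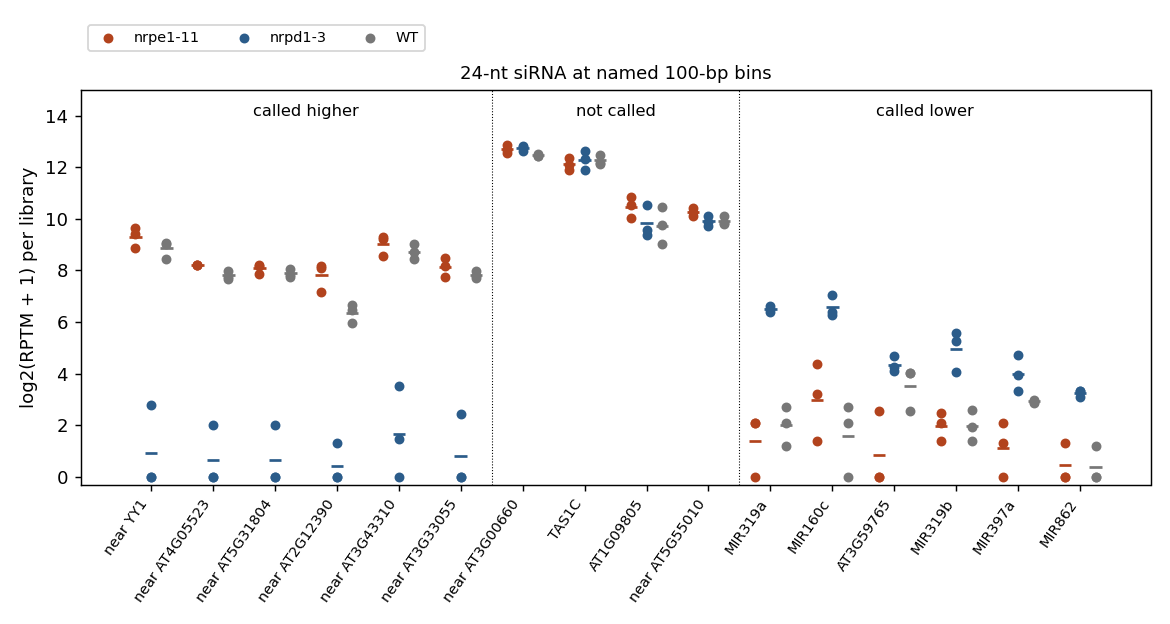
log2(RPTM + 1) of 24-nt siRNA per library at named 100-bp bins. Points are libraries of nrpe1-11, nrpd1-3 and WT, from left to right within a bin, short lines are means, and bins are labelled by their gene or the nearest gene. At the 6 bins called higher nrpe1-11 lies beside or above WT with nrpd1-3 near 0, at the 4 bins without a call all genotypes are close, and at the 6 bins called lower nrpd1-3 lies above both others.

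Loci for which the study designed primers, and SDC and FWA, known targets of RdDM that were added here, differed widely in what nrpe1-11 kept. Of the 31 primer loci, each taken with its flanks, 14 had tested bins, and 18 of their 29 tested bins (62.1%) were called higher, beside 77.4% of all tested bins. At SDC, a gene silenced through tandem repeats in its promoter, the gene and 2 kb upstream had 67.7, 126 and 132 RPTM in nrpe1-11, against 1.12, 2.97 and 0 RPTM in nrpd1-3 and 173 RPTM in WT. It was at least 24.7-fold higher, and 4 of its 5 tested bins were called. At PVS3, a site of a Pol V-stabilized nucleosome, nrpe1-11 had 114, 129 and 146 RPTM, against 0, 7.43 and 0 RPTM in nrpd1-3 and 261 RPTM in WT. The nrpe1-11 mean was 29.6 times the floor, which nrpd1-3 replicate 2 exceeded, and 4 of 5 tested bins were called.

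As a share of WT, nrpe1-11 was highest among the primer loci with tested bins at AT5TE47170, AT4TE10320 and AT2G05660, at 266%, 136% and 83.5%, each at a few reads in a single tested bin, called higher. Their sums were 8.29 ± 4.60, 5.71 ± 2.98 and 6.83 ± 0.596 RPTM in nrpe1-11 (SD, n = 3), against 0 in every nrpd1-3 library. SDC was at 62.6% and PVS3 at 49.7% of WT.

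The soloLTR, a solitary retrotransposon repeat silenced by Pol V, had 12.9, 27.8 and 19.6 RPTM in nrpe1-11, against 0, 0 and 1.79 RPTM in nrpd1-3. All 4 of its tested bins were called higher, at a sum far under the 180 RPTM of WT. The intergenic loci IGN27 and IGN5 had 2 of 2 and 1 of 4 tested bins called. At IGN27 the levels were 14.5, 21.3 and 16.5 RPTM in nrpe1-11, against 0 in every nrpd1-3 library, and 66.1 RPTM in WT. AtSN1, a SINE retrotransposon, had 3.22, 17.99 and 6.02 RPTM in nrpe1-11, against 0, 1.49 and 0 RPTM in nrpd1-3 and 125.4 RPTM in WT. Its single tested bin was not called. At AT5TE47170, AT4TE10320, AT2G05660, SDC, soloLTR, IGN27, IGN5 and AtSN1, every nrpd1-3 library summed to less than 5 RPTM. The tested bins of these loci thus passed the filter through nrpe1-11 alone, and their calls describe that choice as well.

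At other loci both mutants were far under WT. FWA, whose promoter repeats are methylated in WT, had no tested bin, with 6.44, 6.54 and 9.02 RPTM in nrpe1-11, against 0, 1.49 and 0 RPTM in nrpd1-3 and 150.2 RPTM in WT. IGN20, IGN25, IGN32, PVS4, PVS5 and PVS6 also had no tested bin. IGN28, PVS1, PVS2 and AT2TE82000 had 1 tested bin each without a call. IGN28 had 6.44, 14.7 and 9.02 RPTM in nrpe1-11, against 0, 4.46 and 0 RPTM in nrpd1-3. AT2TE82000 reached 21.3 RPTM in nrpe1-11 replicate 2. PVS2 went the other way, with 4.83, 0 and 1.504 RPTM in nrpe1-11, against 12.3, 7.43 and 3.57 RPTM in nrpd1-3, and the groups overlapped. ROS1, MEA and RD29A had no bin among those that the study kept.

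The 7022 tested bins without a call were not, as a set, at like levels in both mutants. Their median log2 fold change was 1.49, with 5831 positive and 1191 negative, and 3291 had no read in any nrpd1-3 library. Some abundant loci among them were at near levels in both mutants. The bin of highest level without a call, Chr3:14192901-14193000, near the rDNA repeat that was left out, had 7461, 6038 and 6496 RPTM in nrpe1-11, against 7158, 6371 and 6984 RPTM in nrpd1-3. The groups overlapped, with a log2 fold change of -0.04 ± 0.09 (SE; limma, adjusted p = 0.69). No 24-mer of this bin occurs only once in the genome, so the copy from which its reads came cannot be told. The TAS genes give rise to trans-acting siRNAs from Pol II transcripts cut by miRNAs. Of the 18 tested bins of TAS1A, TAS1C, TAS2 and TAS3, 0 were called by limma or edgeR with the authors' scaling or by DESeq2, and 1 had an unadjusted p under 0.05 in limma. With TMM scaling edgeR called 7 of them lower, and limma after quantile normalization 9. The TAS1C gene had 5895, 4588 and 5168 RPTM in nrpe1-11, against 6009, 7528 and 4508 RPTM in nrpd1-3, and TAS3 had 277, 391 and 343 RPTM, against 351, 522 and 363 RPTM. Over these 18 bins the median log2 difference was -0.38 with RPTM and 0.26 with miRNA scaling, so the direction depended on the scale.

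Also without a call were AT1G09805 at Chr1:24721101-24721200, annotated as a non-coding RNA, and the bin Chr5:22322701-22322800, 366 bp from AT5G55010. At the bin near AT5G55010 there were 1103, 1218 and 1352 RPTM in nrpe1-11, against 942, 1099 and 852 RPTM in nrpd1-3, with groups that did not overlap and an adjusted p of 0.054 by limma. AT1G09805 had 1047, 1476 and 1850 RPTM in nrpe1-11, against 661, 1482 and 747 RPTM in nrpd1-3.

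miRNA genes contributed a large part of the few lower bins. Of the 152 tested bins in miRNA genes, 18 were called lower in nrpe1-11 and 29 higher, beside 0.207% lower and 77.4% higher among all tested bins. A nrpd1-3 library was above the filter in 73.7% of the miRNA gene bins, beside 5.28% of intergenic bins. The filter thus bears on these shares unequally. Their median log2 fold change was -0.28, against 2.76 over all tested bins, and it was 0.26 when libraries were scaled to the miRNA genes themselves, so its sign depended on the scale. By gene, 17 of the 99 miRNA genes with a tested bin had a lower bin, 20 had a higher bin, 0 had both and 62 had none.

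MIR319a and MIR319b, whose miRNA acts on TCP transcription factor genes, had lower bins in the same part of their hairpin precursors, beside the mature miRNA and not over it. The bins are printed in the direction of the transcript, and capitals mark bases in runs of 10 that both share.
MIR319a: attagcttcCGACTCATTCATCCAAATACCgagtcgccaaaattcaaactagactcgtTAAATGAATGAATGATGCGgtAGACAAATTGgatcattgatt
MIR319b: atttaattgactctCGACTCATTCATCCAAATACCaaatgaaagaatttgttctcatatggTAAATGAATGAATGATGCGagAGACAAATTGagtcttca
The mature miRNA, the same in both, is given with its seed (bases 2 to 8) in capitals.
miR319a: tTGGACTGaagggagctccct
The MIR319a bin, Chr4:12353001-12353100, is on the plus strand and ends 8 bases before the mature miRNA, and the MIR319b bin, Chr5:16660501-16660600, on the minus strand, ends 11 bases before it. MIR319a had 3.22, 3.27 and 0 RPTM in nrpe1-11, against 89.3, 98.1 and 82.2 RPTM in nrpd1-3. It was at least 18.9-fold lower in nrpe1-11, with a log2 fold change of -5.11 ± 0.58 (SE; limma, adjusted p = 1.4e-04), and WT was at 3.36 RPTM. MIR319b had 3.22, 1.64 and 4.51 RPTM in nrpe1-11, against 15.6, 46.1 and 37.5 RPTM in nrpd1-3 and 3.16 RPTM in WT, at least 6.96-fold lower. At both, WT lay with nrpe1-11 and the nrpd1-3 libraries alone were high. Both bins passed the filter through nrpd1-3 alone, so their calls describe that choice as well. The call at MIR319b was lost without nrpe1-11 replicate 2 (log2 -2.69).

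MIR160c and MIR862 had lower bins over the mature miRNAs, which capitals mark in the bins printed here in the direction of the transcript.
MIR160c: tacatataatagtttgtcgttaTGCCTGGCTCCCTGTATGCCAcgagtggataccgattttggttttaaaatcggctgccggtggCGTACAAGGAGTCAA
MIR862: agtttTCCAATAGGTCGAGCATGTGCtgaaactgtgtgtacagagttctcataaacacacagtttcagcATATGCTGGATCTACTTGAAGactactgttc
MIR160c, whose miRNA acts on auxin response factor genes, had 1.61, 8.18 and 19.6 RPTM in nrpe1-11, against 77.0, 131 and 82.2 RPTM in nrpd1-3, a mean 9.89-fold lower. WT was at 2.94 RPTM, and the call was lost with no filter on low bins and without nrpe1-11 replicate 2 (log2 -3.70 without it). MIR862 overlaps PKL, the chromatin remodeler gene that gives the study its pkl-1 mutant. It had 0, 0 and 1.504 RPTM in nrpe1-11, against 8.93, 7.43 and 8.93 RPTM in nrpd1-3, at least 1.78-fold lower, with 0.424 RPTM in WT. MIR397a, whose miRNA acts on laccase genes, overlaps the nucleoside transporter gene ENT6. It had 3.22, 0 and 1.504 RPTM in nrpe1-11, against 25.7, 8.92 and 14.3 RPTM in nrpd1-3 and 6.60 RPTM in WT. Its call was lost when nrpe1-11 replicate 2 or 3 was left out or miRNA scaling was used. The bins of MIR862 and MIR397a also passed the filter through nrpd1-3 alone.

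Other miRNA genes differed less. MIR822 had 96.6, 91.6 and 110 RPTM over its 3 bins in nrpe1-11, against 267, 308 and 202 RPTM in nrpd1-3 and 86.8 RPTM in WT. MIR158a had 171, 209 and 224 RPTM in nrpe1-11, against 375, 477 and 357 RPTM in nrpd1-3 and 189.7 RPTM in WT. MIR165a, whose miRNA acts on HD-ZIP III transcription factor genes, had 30.6, 34.3 and 60.2 RPTM in nrpe1-11, against 84.9, 93.7 and 76.8 RPTM in nrpd1-3. None of these groups overlapped.

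Among the 20 miRNA genes with a higher bin, of 99 with a tested bin, were all 6 annotated members of the MIR5645 family, a to f. Of all tested bins, 77.4% were called higher. MIR5645a had 33.8, 37.6 and 42.1 RPTM in nrpe1-11, against 0 in all 3 nrpd1-3 libraries, and 219 RPTM in WT. MIR2933a had 33.8, 42.5 and 40.6 RPTM in nrpe1-11, against 0 in all 3 nrpd1-3 libraries, and 32.4 RPTM in WT. The tested bins of MIR5645a and MIR2933a therefore passed the filter through nrpe1-11 alone. MIR8168 had 159, 213 and 230 RPTM in nrpe1-11, against 2.23, 5.95 and 7.14 RPTM in nrpd1-3, and 95.1 RPTM in WT.

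The other large group of lower bins was an inverted repeat on chromosome 3. Transcripts of inverted repeats can fold into hairpins, a substrate that Dicer proteins cut without Pol IV. Lower bins with gaps of up to 2 kb formed a cluster at Chr3:1963901-1970300, chosen after its values were seen, which overlaps AT3G01835, AT3G01845 and AT3G06435. Its arms are nearly the same sequence in opposite directions, as a stretch around the bin of highest level shows, with capitals for the bases shared by the arms.
Chr3:1964801-1964900, plus strand: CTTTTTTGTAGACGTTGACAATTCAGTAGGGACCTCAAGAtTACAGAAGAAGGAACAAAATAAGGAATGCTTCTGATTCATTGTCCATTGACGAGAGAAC
Chr3:1969270-1969369, minus strand: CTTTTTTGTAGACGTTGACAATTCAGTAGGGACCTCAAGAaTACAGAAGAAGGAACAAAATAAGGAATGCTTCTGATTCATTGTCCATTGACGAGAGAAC
The stretches share 99 of 100 bases and are 4369 bases apart. Of the 62 bins tested in the cluster, 24 were called lower and 38 were not called, and in all 62 the nrpe1-11 mean was below the nrpd1-3 mean. The sum was 10499, 13139 and 14022 RPTM in nrpe1-11, against 18929, 28389 and 23110 RPTM in nrpd1-3. The means were 12553 ± 1833 RPTM in nrpe1-11 and 23476 ± 4740 RPTM in nrpd1-3 (SD, n = 3 each), 1.87-fold lower in nrpe1-11. Since the cluster was built from bins called lower, these values are a description with no test. WT lay between them at 18240 RPTM and pkl-1 was under both mutants at 5226 RPTM. Median log2 over these bins was -0.87 with RPTM and -0.23 with miRNA scaling, under which 1 of the 62 bins was called.

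**Figure D5:**
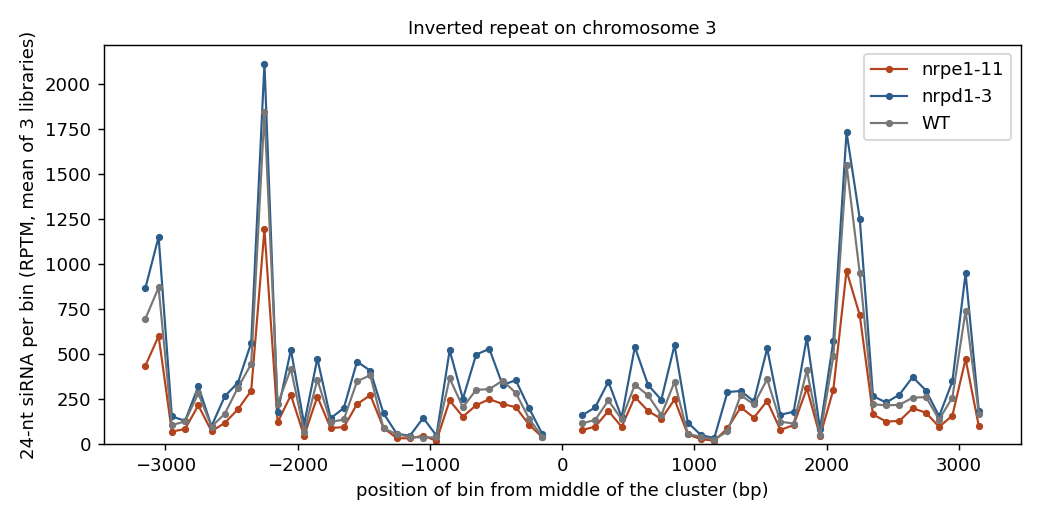
24-nt siRNA per 100-bp bin in RPTM (mean of 3 libraries) along the inverted repeat on chromosome 3, by distance in bp from the middle of the cluster of lower bins, for nrpe1-11, nrpd1-3 and WT. The lines rise and fall together on both arms, with nrpe1-11 under nrpd1-3 in all 62 tested bins.

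A smaller cluster, Chr4:7882801-7883100, lay in UNE15, a gene of the late embryogenesis abundant family, and MIR5996. It had 158, 155 and 137 RPTM in nrpe1-11, against 472, 504 and 280 RPTM in nrpd1-3, 2.79-fold lower, and 440.2 RPTM in WT. The call at its bin Chr4:7882901-7883000 (log2 -1.39) was lost when any nrpe1-11 library was left out, with no filter on low bins, with bins chosen by WT level, and with miRNA scaling, under which the log2 fold change was -0.75. A lower bin also lay in the nearby HTA4, a histone H2A gene. It had 59.6, 55.6 and 60.2 RPTM in nrpe1-11, against 195, 175 and 122 RPTM in nrpd1-3 and 113 RPTM in WT. The non-coding AT4G26255 had 20.9, 34.3 and 22.6 RPTM in nrpe1-11, against 89.3, 129 and 87.5 RPTM in nrpd1-3 and 11.6 RPTM in WT.

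Of the 24 lower bins in protein-coding genes, 14 lay outside this inverted repeat, and 11 of these were under 20 RPTM in the nrpd1-3 mean. They included bins of NIT1, PMDH2, GRP-3, CAT2 and RPF3, and of GAPC2, THI1 and PSBO1, whose values were seen before they were chosen. All these bins, and that of AT3G59765 below, passed the filter through nrpd1-3 alone. GAPC2, for glycolytic glyceraldehyde-3-phosphate dehydrogenase, had 3.22, 0 and 1.504 RPTM in nrpe1-11, against 6.70, 10.4 and 8.93 RPTM in nrpd1-3. THI1, for thiamine biosynthesis, had 1.61, 3.27 and 0 RPTM in nrpe1-11, against 6.70, 8.92 and 10.7 RPTM in nrpd1-3. PSBO1, a subunit of the oxygen-evolving complex of photosystem II, had 1.61, 1.64 and 1.504 RPTM in nrpe1-11, against 7.82, 8.92 and 3.57 RPTM in nrpd1-3. WT means were 3.86 RPTM at GAPC2, 2.73 RPTM at THI1 and 5.71 RPTM at PSBO1. At AT3G59765, a non-coding RNA gene, nrpe1-11 had 0, 4.91 and 0 RPTM, against 17.9, 16.4 and 25.01 RPTM in nrpd1-3. WT was at 11.8 RPTM there, and the call was lost when nrpe1-11 replicate 1 or 3 was left out.

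The lower list was less stable than the higher one when libraries were left out. When single libraries were left out, 32 to 56 bins were called lower, and 20 to 45 of the 65 kept their call. The fewest did without nrpe1-11 replicate 2, and 25 to 29 did without nrpe1-11 replicate 1 or 3 or nrpd1-3 replicate 2 or 3. With miRNA scaling 15 of the 65 kept their call, 8 of them in miRNA genes. By edgeR on the recovered reads 53 of the 65 were also lower. In 40 of the 65 the WT mean was nearer nrpe1-11 than nrpd1-3. Of the 65 lower bins, 26 had an inverted 24-mer within 10 kb, and 24 of these were the lower bins of the inverted repeat on chromosome 3. Outside it 2 of 41 lower bins had one (4.88%), beside 4.41% of bins without a call and 2.61% of higher bins. Base composition differed little, with a median GC content of 35% in lower, 39% in uncalled and 38% in higher bins, and medians of 27, 27 and 26 CHH cytosines on both strands.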

How the data were processed

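Small RNA of 2-week-old seedlings was sequenced from size-selected total RNA (TruSeq). The authors trimmed reads, removed those of structural RNAs, mapped the rest to TAIR10, kept uniquely mapped reads by their methods, tallied 24-nt reads per 100-bp bin (bedtools) and divided by the mapped total. The deposited values are therefore a signal, in reads per 10000000 (RPTM), for each of the 12 libraries. The submitters' processing notes list CASAVA 1.8, Trim Galore 0.4.0 and BWA 0.7.15. By the study's methods only bins above 5 RPTM in any plant were retained. Reads spanning 2 bins count in each.

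All deposited values came out as whole reads (100%, tolerance 0.05 reads), and reads and mapped totals were recovered from these steps. The value of 3 reads, 4.51 to 4.91 RPTM in nrpe1-11 and 3.35 to 5.36 RPTM in nrpd1-3 libraries, served as the floor and covers counting error only. Nuclear bins outside the rDNA above 5 RPTM in any of the 6 libraries were tested with limma 3.58.1 (R 4.3.3, trend) on log2(RPTM + 1), two-sided, with Benjamini-Hochberg adjustment over the 31371 bins and a call at 0.01. The pseudocount understates changes of low bins. edgeR 4.0.16 on the recovered reads with the authors' scaling called 23189 bins higher and 90 lower. DESeq2 1.42.0 was a further alternative. Sums were compared by exact permutation tests. The procedure was tested on simulated data.

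The reference used for genes and sequences carries the TAIR10 nuclear chromosomes, and no bin ended beyond its chromosome. Centromeres were placed at the median position of satellite primer matches. At most 1 mismatch was allowed, because exact matches were absent on 3 chromosomes. Matches numbered 31, 53, 8, 271 and 714 on chromosomes 1 to 5, so the position is least certain on chromosome 3. Inverted 24-mers are 24-mers with a reverse complement within 10 kb.

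Named were the 6 regions of largest increase and the 6 of largest decrease whose groups did not overlap, the 4 with the largest summed difference, the 3 longest, the 4 highest bins without a call, the 4 genes with most called bins, loci with primers in the study, miRNA genes, ROS1, SDC, FWA, MEA and TAS genes. Lower clusters, lower coding genes and the satellite set were added after values were seen. Primers of AtMu1 and AtGP1 matched no single site. Bins and lists were chosen with earlier results of these data known. Small RNA does not check the mutated transcripts, and light cycles differ between the labels and the study's methods.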

Additional observations from a re-analysis of the deposited data

Results flagged for a closer look

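Reads outside the tested bins were set beside WT and nrpd1-3 as totals of 24-nt reads per library. At the rDNA bins the nrpe1-11 total was above every WT library, at 1.17 times the WT mean (451952 ± 26054 RPTM in nrpe1-11, 465707 ± 18935 RPTM in nrpd1-3 and 387148 ± 27212 RPTM in WT; SD, n = 3 each). At the chloroplast genome it was also above every WT library, at 1.17 times the WT mean (44186 ± 2150 RPTM in nrpe1-11, 48811 ± 1032 RPTM in nrpd1-3 and 37757 ± 1429 RPTM in WT). At the mitochondrial genome it was above every nrpd1-3 library, at 1.58 times the nrpd1-3 mean (4405 ± 51.1 RPTM in nrpe1-11, 2789 ± 482 RPTM in nrpd1-3 and 4937 ± 344 RPTM in WT).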

How the results depend on the processing

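The direction of the whole comparison held under all alternatives except quantile normalization, which forces equal distributions. The median log2 fold change over bins, 2.76 as reported, was 5.73 and 1.15 with pseudocounts of 0.1 and 5 RPTM, 1.89 without a filter, 4.26 with a filter of 20 RPTM, 3.73 with a mean above 5 RPTM, 2.98 with miRNA scaling, -0.084 with quantile normalization, 4.999 with edgeR, 4.45 with edgeR and TMM, 4.45 with DESeq2, 4.46 with DESeq2 and the authors' scaling, and 1.83 in the WT-selected bins, a set chosen after the data were seen. Counts of higher bins (24284) fell to 4876 with the filter of 20 RPTM, 9144 with a mean above 5 RPTM and 7157 with unique 24-mers only, where fewer bins were tested, to 13190 with DESeq2 and the authors' scaling, which gave no adjusted p for 12130 bins, and to 1226 with quantile normalization. Leaving out single libraries gave 19586 to 23239. Lower bins (65) numbered 24 without a filter, 15 with miRNA scaling, 1131 with quantile normalization, 443 with edgeR and TMM, 20 with unique 24-mers only, 14 in the WT-selected bins, 184 at an adjusted p of 0.05 and 32 to 56 without single libraries. The causes of the other changes were not tested.

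The main test took the libraries as unpaired. Deviations of same-numbered libraries correlated weakly, by 0.07, 0.11 and 0.04. These were still the highest values, as differently numbered libraries ran from -0.079 to 0.038. A replicate block gave 26000 higher and 201 lower bins. Whether libraries of the same number share an effect was not tested. Of bins without a call, Chr3:14192901-14193000 changed sign to 0.60 with miRNA scaling, and ranged between -0.12 and 0.028 when single libraries were left out. TAS1C at Chr2:16537801-16537900 changed to 0.48 with miRNA scaling and ranged between -0.35 and 0.015 without single libraries (0.015 without nrpd1-3 replicate 2), AT1G09805 at Chr1:24721101-24721200 to -0.82 and Chr5:22322701-22322800 to -0.91 with edgeR and TMM. For the 24 named bins and the share called higher in 5 annotation classes, 457 of 596 alternative values kept their direction and call or share, 91 class shares moved, 38 bin values lost and 4 gained a call, and 6 changed sign. Depth limits low bins: nrpd1-3 levels under about 4.39 RPTM cannot be told from 0.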
